A study of Mus musculus with 6 samples.

Results

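The RNA levels of 10 nuclear genes that encode chaperones and proteases of mitochondria, Hspd1, Hspe1, Hspa9, Trap1, Lonp1, Clpp, Clpx, Afg3l2, Spg7 and Htra2, were compared between control and PGAM5 knockdown (KD) macrophages. The genes were taken by their symbol in the GENCODE M21 annotation of the mouse genome, and all 10 were found among the 54532 genes listed for each library. RNA was measured by RNA-seq in iBMDMs, a line of mouse bone marrow-derived macrophages immortalised with a retrovirus that carries v-raf and v-myc. The cells carried a lentiviral control shRNA (3 libraries) or a lentiviral shRNA against PGAM5, a protein phosphatase of mitochondria (3 libraries), and the cells of all 6 libraries had been treated with LPS at 100 ng/ml for 4 hours. The comparison asked how the transcriptome of LPS-treated macrophages differed when PGAM5 was depleted. No library without LPS was analysed here, and whether replicates were separate cultures was not given, so the p-values measure the spread between these libraries. The labels name each group by its shRNA only, and the number of shRNA sequences was not given. An effect of the knockdown and a difference between the lines therefore cannot be told apart.

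Most mitochondrial proteins are made in the cytosol, enter the organelle unfolded and are folded there by chaperones. The mitochondrial HSP70 pulls incoming chains through the import channel, the HSP60 and HSP10 chaperonin encloses and folds them, and ATP-driven proteases of the matrix and the inner membrane remove chains that are damaged or in excess. Cells under mitochondrial protein stress can raise the transcription of these genes, which is known as the mitochondrial unfolded protein response, and in macrophages mitochondria also take part in signalling and metabolism after LPS.

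Of the 10 genes, Lonp1 and Clpp, which encode proteases of the matrix, rose in PGAM5 KD cells, Trap1, which encodes the HSP90 chaperone of mitochondria, fell, and 7 did not pass the test. The Clpp call was lost in 9 of 18 other fits, 5 of them with 1 library left out, whereas those of Lonp1 and Trap1 held in all 18. Lonp1 was 1.22 times, Clpp 1.14 times and Trap1 0.864 times its control level as a ratio of mean FPKM (fragments scaled to exon length and to library depth), with n = 3 per group. The test was limma on log2(FPKM + 1), fitted on the 10540 genes whose FPKM averaged 1 or more and adjusted by Benjamini-Hochberg over all of them, and a gene was called at an adjusted p below 0.05. Of the genes tested, 16.8% were called higher and 14.9% were called lower, together 31.7%, so 3 of 10 called was close to the share over all genes. None of the 10 passed the study's threshold for differential expression, an absolute log2 fold change above 1 with an adjusted p below 0.05, which 1.32% of genes passed. The median log2 fold change of the 10 was 0.08, against 0.01 over all genes tested. In this fit 7 of the 10 were above 0, against 52.5% of all genes. Under quantile normalisation 5 were above 0 (49.5% of all genes), and under TPM scaling, which sets every library to the same sum, also 5 (40.4%).

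Stretches of promoter sequence are shown that belong to the pair of genes that share a start region and to the 2 genes whose calls held in every fit. The sequences came from RefSeq (GRCm38.p6), which gave a window of 250 bases before the start for 7 of the 10 genes, while Hspa9, Afg3l2 and Htra2 had none. Capitals mark matches to the heat shock, ETS, E-box and whole cyclic AMP response element letters given below, searched on both strands, and the shorter TGACG is not marked on its own. The first stretch lies in the 5′ UTR of another annotated Hspd1 transcript, and the other two lie outside annotated transcripts.
Hspd1 and Hspe1, chr1:55088054-55088083, + strand: gtccgTTCTAGAACCTTCCGGAAGgccccg
Lonp1, chr17:56626904-56627153, - strand: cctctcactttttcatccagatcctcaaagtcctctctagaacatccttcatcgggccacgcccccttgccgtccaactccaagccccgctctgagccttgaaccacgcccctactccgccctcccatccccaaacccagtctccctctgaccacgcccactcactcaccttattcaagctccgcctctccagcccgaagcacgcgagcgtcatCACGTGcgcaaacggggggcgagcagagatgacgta
Trap1, chr16:4077828-4078060, - strand: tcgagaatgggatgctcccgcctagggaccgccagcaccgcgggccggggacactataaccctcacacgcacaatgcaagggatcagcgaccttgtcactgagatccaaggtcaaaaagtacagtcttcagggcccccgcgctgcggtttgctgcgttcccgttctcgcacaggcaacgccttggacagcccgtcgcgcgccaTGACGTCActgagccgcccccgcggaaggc
Hspd1 and Hspe1 lie head to head on chromosome 1, and 107 bases lie between the start of an Hspd1 transcript and the start of the longest Hspe1 transcript. The 19 capitals between them hold the 2 arrangements of the heat shock element, TTCNNGAA and GAANNTTC, and overlap the ETS letters CCGGAAG, and the last of them lies 55 bases before that Hspe1 start. TTCNNGAA was found in 7.17% and GAANNTTC in 6.69% of the 32851 RefSeq windows, and both together in 1.02%. CCGGAAG was found in 6.91%. The Lonp1 stretch holds the E-box CACGTG 36 bases before its start, as 6.02% of windows did, among them a second window of Hspd1. The Trap1 stretch holds the cyclic AMP response element TGACGTCA 47 bases before its RefSeq start, as 1.55% did. The shorter letters TGACG, which lie within that element, was in 17.8% of windows and in those of Hspd1, Hspe1, Trap1 and Lonp1, where the windows of Hspd1 and Hspe1 overlap and hold the same match. The NRF1 letters GCATGCGC were found in Clpx alone of the 7 and in 2.26% of windows, and the C/EBP-ATF composite TGATGNAA in none of the 7 and in 3.45% of windows. A match describes the letters only and is not a binding site.

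The knockdown was seen in the RNA of its target. Pgam5 was at 17.1, 12.97 and 13.4 FPKM in control and at 4.33, 5.75 and 4.53 FPKM in PGAM5 KD libraries, a log2 fold change of -1.398 (SE 0.13, adjusted p = 0.000358 by limma). Depth was 18163463 to 24388915 fragments, and FPKM summed over all genes came to 304393 to 304889 in control and 317936 to 324298 in PGAM5 KD libraries. PGAM5 KD replicate 1 stood somewhat apart, with a chi-square per degree of freedom over genes of 8.07 and 8.83 against the other PGAM5 KD libraries and 5.01 to 5.68 for the other pairs of a group. Rescaling every library to the same sum (TPM) moved the calls over all genes from 1771 higher and 1575 lower to 1088 higher and 2282 lower, or from 52.9% to 32.3% higher. Of 9 macrophage markers, 8 were expressed and Mertk was at 0. Their summed level was 2977 to 3062 FPKM in control and 2689 to 2717 FPKM in PGAM5 KD libraries, with 4 called higher and 3 lower. Among those, Csf1r fell by 0.64 and Fcgr1 rose by 1.51 on the log2 scale. Summed levels of 8 neutrophil and 7 fibroblast markers stayed at or below 0.568 and 0.0168 FPKM, with 5 genes of each list at 0 in every library, and 8 lymphocyte markers summed to 1.41 to 2.48 FPKM in control and 1.81 to 3.37 FPKM in PGAM5 KD libraries, mostly Lck, with 3 genes at 0. The part of the shifts in macrophage markers in the values below was not tested, and in bulk RNA fewer cells of a type and less RNA per cell cannot be told apart.

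The 10 genes spanned a wide range of levels. Hspd1, which encodes HSP60, was the most abundant at 512 ± 14.5 FPKM (SD, n = 3) in control libraries, above 99.4% of the genes tested by mean level. It was followed by Hspa9 at 279 ± 7.58, Hspe1 at 130 ± 4.09 and Trap1 at 86.0 ± 2.29 FPKM, so the 4 chaperones stood above the 6 protease genes. Among the proteases the control means were 47.7 ± 1.35 FPKM for Lonp1, 38.9 ± 1.94 for Afg3l2, 35.4 ± 0.187 for Clpp, 30.6 ± 0.943 for Htra2, 15.6 ± 1.12 for Clpx and 15.2 ± 0.335 for Spg7. Each of the first 8 stood clear of the next in all control libraries, and only the ranges of Clpx and Spg7 met. In PGAM5 KD libraries the ranges of Afg3l2 and Clpp met as well. Hspd1 and Hspa9 together made up 64.8% to 67.0% of the summed FPKM of the 10 genes, and that sum was 1175 to 1201 FPKM in control and 1160 to 1195 FPKM in PGAM5 KD libraries, ranges that overlap. As a share of all FPKM in the library the sum was 0.386% to 0.394% in control and 0.359% to 0.376% in PGAM5 KD libraries, lower in every PGAM5 KD library. The deposited FPKM of Afg3l2 and Hspa9 rested on gene lengths of 3085 and 3932 bases, shorter than the 9874 and 4310 exonic bases of M21. This bears on their place in the order and not on the main comparison between groups. The GC and length correction used the M21 lengths, so for Afg3l2 and Hspa9 it was made at a length other than that of the FPKM.

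**Figure D1:**
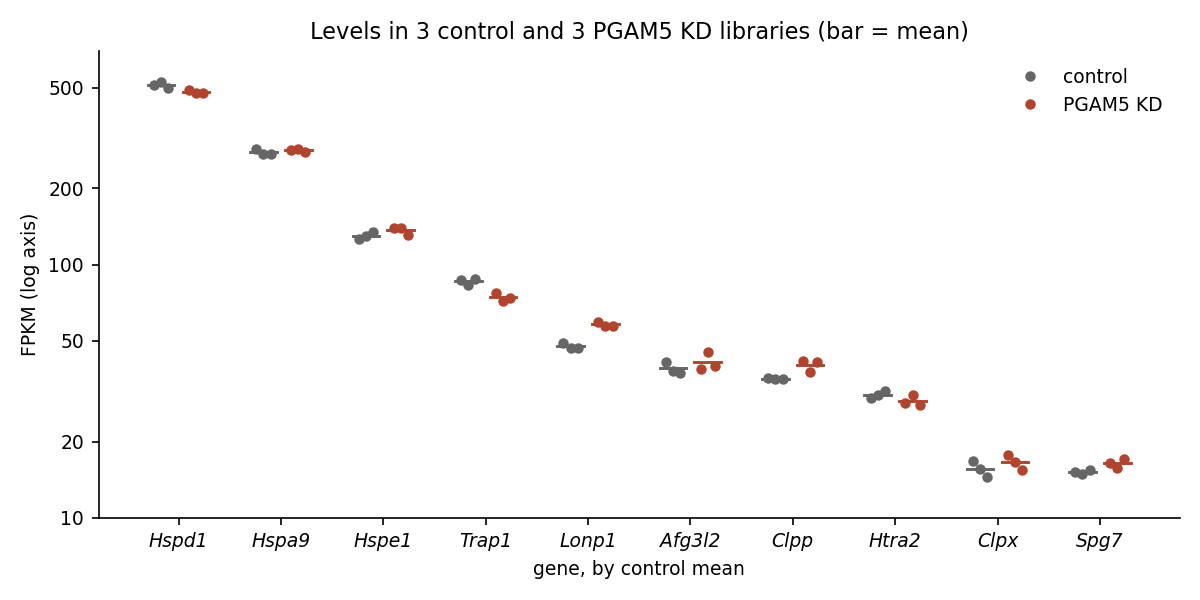
FPKM on a log axis for the 10 genes, ordered by control mean, with 1 point per library (grey control, red PGAM5 KD) and a bar at the group mean. The chaperones Hspd1, Hspa9, Hspe1 and Trap1 stand highest, Clpx and Spg7 lowest, and the red points lie wholly above the grey for Lonp1, Clpp and Spg7 and wholly below for Trap1 and Hspd1.

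The chaperonin pair came first. HSP60 forms the folding chamber and HSP10, the product of Hspe1, its lid. Hspd1 (chr1:55077835-55088243, GRCm38) was at 513, 526 and 498 FPKM in control and at 492, 478 and 477 FPKM in PGAM5 KD libraries. Every PGAM5 KD library was below every control library, and the ratio of the means was 0.941. The log2 fold change was -0.09 with a 95% interval of -0.16 to -0.01, and the adjusted p of 0.0708 by limma missed the threshold. Hspe1 (chr1:55088132-55091307) was at 126, 129 and 134 FPKM in control and at 139, 139 and 131 FPKM in PGAM5 KD libraries. The 2 groups overlapped, and the log2 fold change was 0.07 (-0.02 to 0.16, adjusted p = 0.187 by limma). The partners thus had opposite signs without either passing the test. Hspd1 was called lower after quantile normalisation (log2 fold change -0.26), TPM scaling (-0.17), voom, a limma method for counts, on fragments recovered from the FPKM (-0.09) and correction for GC content and exon length (-0.18), whereas Hspe1 had a negative log2 fold change under quantile normalisation (-0.02), TPM scaling (-0.0045) and the GC and length correction (-0.07).

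Since both partners were read in the same library, a single scaling factor per library, such as depth or TPM, cancels in their ratio, whereas quantile normalisation and the GC and length correction do not cancel. The Hspd1/Hspe1 ratio of FPKM was 4.07, 4.07 and 3.71 in control and 3.53, 3.43 and 3.63 in PGAM5 KD libraries. All 3 PGAM5 KD ratios were below the lowest control ratio, with means of 3.95 ± 0.210 and 3.53 ± 0.0977 (SD, n = 3). The difference in log2 ratio was -0.16 (SE 0.05), and the exact two-sided permutation p was 0.1, the smallest that 3 against 3 libraries allow, or 0.3 adjusted over the 3 partner ratios compared. Fragments of Hspd1 can be confused with those of 14 pseudogenes that resemble its transcript by at least 85% over at least 200 bases. The closest, Hspd1-ps3, is 99.0% identical over 1722 bases and was listed at 15.3 to 22.4 FPKM, and at least 97.3% of the fragments of the set were assigned to Hspd1 itself. Adding the fragments of all 14 moved the log2 ratio of the 2 groups from -0.087 to -0.089. Of the Hspd1 transcript, 71.1% lies in matches of at least 98% identity. Fragments assigned to no single gene would not be seen in this sum, and their part was not tested. The gene bodies of Hspd1 and Hspe1 share 112 bases on opposite strands, and the protocol in the labels covers both stranded and unstranded kits.

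The other 2 chaperones behaved differently from each other. Hspa9 encodes mortalin, the HSP70 of the matrix that drives import and hands chains on to the chaperonin. Hspa9 was at 287, 274 and 274 FPKM in control and at 284, 285 and 279 FPKM in PGAM5 KD libraries, overlapping ranges with a log2 fold change of 0.02 (-0.05 to 0.09, adjusted p = 0.629 by limma). It had 20367 to 26710 fragments per library, and its interval was among the narrowest of the 10. Its sign turned under quantile normalisation (-0.08) and TPM scaling (-0.06), without a call. Trap1 (chr16:4039971-4077827) was at 86.9, 83.4 and 87.7 FPKM in control and at 77.1, 71.9 and 73.9 FPKM in PGAM5 KD libraries. The highest PGAM5 KD library stood below the lowest control library. Trap1 fell by 0.21 on the log2 scale (SE 0.04, 95% interval -0.30 to -0.12), with an adjusted p of 0.00719 by limma and an exact permutation p of 0.1. Without PGAM5 KD replicate 1 the log2 fold change was -0.24 (adjusted p = 0.00721 by limma). It was called lower in each of the 18 other fits, with log2 fold changes from -0.29 to -0.19. At its 3′ end Trap1 shares 54 bases with Dnase1 on the opposite strand, which was at 1.58 ± 0.264 FPKM in control and 0.693 ± 0.200 FPKM in PGAM5 KD libraries, and its part in the Trap1 value was not tested.

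**Figure D2:**
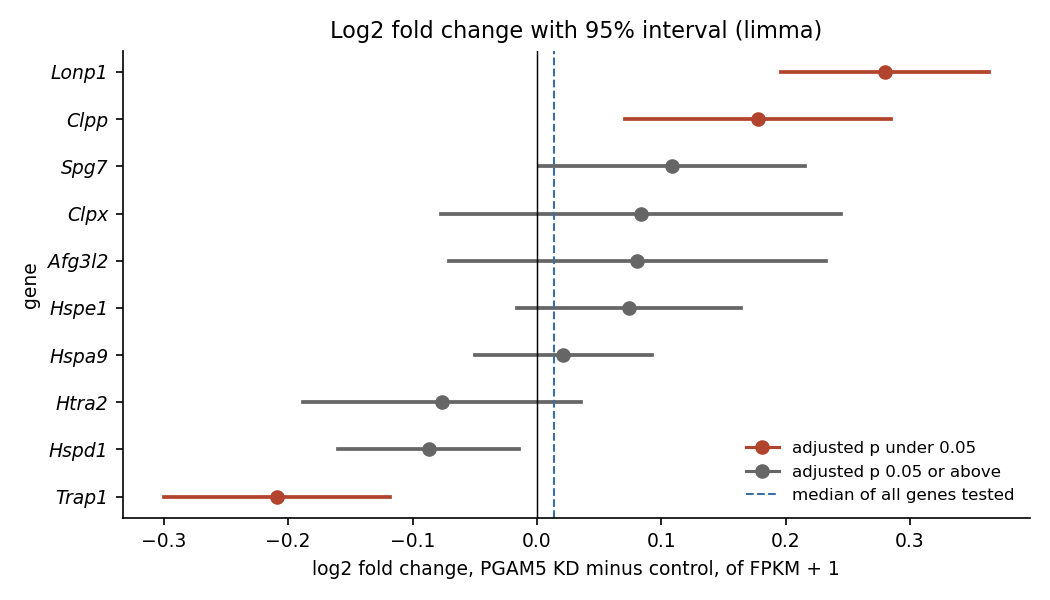
Log2 fold change of FPKM + 1 (PGAM5 KD minus control) for the 10 genes with its 95% interval from limma, red where the adjusted p was below 0.05. Lonp1 at 0.28 and Clpp at 0.18 stand to the right of 0, Trap1 at -0.21 to the left, and the dashed line at 0.01 is the median of all genes tested.

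Lonp1 encodes the LON protease, an ATP-driven enzyme of the matrix that degrades oxidised and misfolded proteins and helps to set the amount of mitochondrial DNA-binding proteins. Lonp1 (chr17:56614297-56626887) was at 49.2, 46.9 and 46.8 FPKM in control and at 59.3, 57.4 and 57.4 FPKM in PGAM5 KD libraries. Both groups were tight and stood clear of each other. It rose by 0.28 on the log2 scale (SE 0.04, 95% interval 0.20 to 0.36), with an adjusted p of 0.00149 by limma and an exact permutation p of 0.1, and was called higher in each of the 18 other fits, with log2 fold changes from 0.21 to 0.30. Without PGAM5 KD replicate 1 the log2 fold change was 0.26 (adjusted p = 0.00547 by limma). No other transcript resembled Lonp1 by the rule above. Its 3′ end lies 53 bases from Rpl36, a gene of the ribosome on the opposite strand, which was at 816 ± 36.2 FPKM in control and 1052 ± 13.7 FPKM in PGAM5 KD libraries. The part of Rpl36 in the Lonp1 value was not tested.

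Clpp encodes the peptidase chamber of the ClpXP protease and Clpx the unfoldase that feeds it. Clpp (chr17:56990305-56996188) was at 35.6, 35.2 and 35.3 FPKM in control and at 41.5, 37.7 and 41.3 FPKM in PGAM5 KD libraries. The groups did not overlap, and PGAM5 KD replicate 2 lay nearest to the control libraries. Clpp rose by 0.18 on the log2 scale (SE 0.05, 95% interval 0.07 to 0.28, adjusted p = 0.0241 by limma), a call that depended on the processing. It was lost when any 1 of control replicates 1, 2 and 3 and PGAM5 KD replicates 1 and 3 was left out (adjusted p of 0.0587, 0.0668, 0.0675, 0.0617 and 0.0773), and it held without PGAM5 KD replicate 2 (0.0115). It was also lost after quantile normalisation (0.0642), TPM scaling (0.164), voom on recovered fragments (0.0552) and correction for GC content and exon length (0.458), where the log2 fold change was 0.06. Clpp had the fewest fragments of the 10 genes, 790 to 1231 per library, and its coefficient of variation of 0.529% over the control libraries lay below the 3.56% of counting error at 790 fragments.

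Clpx was at 16.8, 15.6 and 14.5 FPKM in control and at 17.6, 16.7 and 15.5 FPKM in PGAM5 KD libraries, ranges that overlapped, with a log2 fold change of 0.08 (-0.08 to 0.24, adjusted p = 0.388 by limma). The interval includes the value of Clpp. The value was 0.01 under TPM scaling, 0.036 without control replicate 3 and 0.13 without control replicate 1, and was called in none of the 18 other fits. The Clpx/Clpp ratio was 0.471, 0.441 and 0.412 in control and 0.425, 0.443 and 0.375 in PGAM5 KD libraries, a difference in log2 ratio of -0.09 (SE 0.09, exact permutation p = 0.5, adjusted p = 0.75 over the 3 ratios). With 3 against 3 libraries this test cannot go below 0.1, and with a library left out the difference ran from -0.14 to -0.024.

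At the inner membrane, Afg3l2 and Spg7 (paraplegin) encode subunits of the m-AAA protease, which faces the matrix and processes or degrades membrane proteins. Afg3l2 was at 41.1, 38.1 and 37.5 FPKM in control and at 38.9, 45.0 and 39.9 FPKM in PGAM5 KD libraries, and only PGAM5 KD replicate 2 was above all control libraries. Its log2 fold change was 0.08 (-0.07 to 0.23, adjusted p = 0.376 by limma), against 0.018 without PGAM5 KD replicate 2, 0.0041 under TPM scaling and 0.18 after the GC and length correction (adjusted p = 0.0835). That correction used the M21 length of Afg3l2, 9874 bases, in place of the 3085 bases behind its FPKM. Spg7 was at 15.2, 14.9 and 15.5 FPKM in control and at 16.5, 15.8 and 17.03 FPKM in PGAM5 KD libraries. The Spg7 groups did not overlap, but the log2 fold change of 0.11 (0.00 to 0.22) had an adjusted p of 0.113 by limma, and under TPM scaling it was 0.036 (adjusted p = 0.623). Non-overlapping groups were seen in 5 of the 10 genes (Hspd1, Trap1, Lonp1, Clpp and Spg7) and in 47.1% of all genes tested. The Afg3l2/Spg7 ratio was 2.72, 2.57 and 2.42 in control and 2.35, 2.85 and 2.34 in PGAM5 KD libraries, a difference in log2 ratio of -0.03 (SE 0.11, exact permutation p = 0.8, adjusted p = 0.8 over the 3 ratios).

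**Figure D3:**
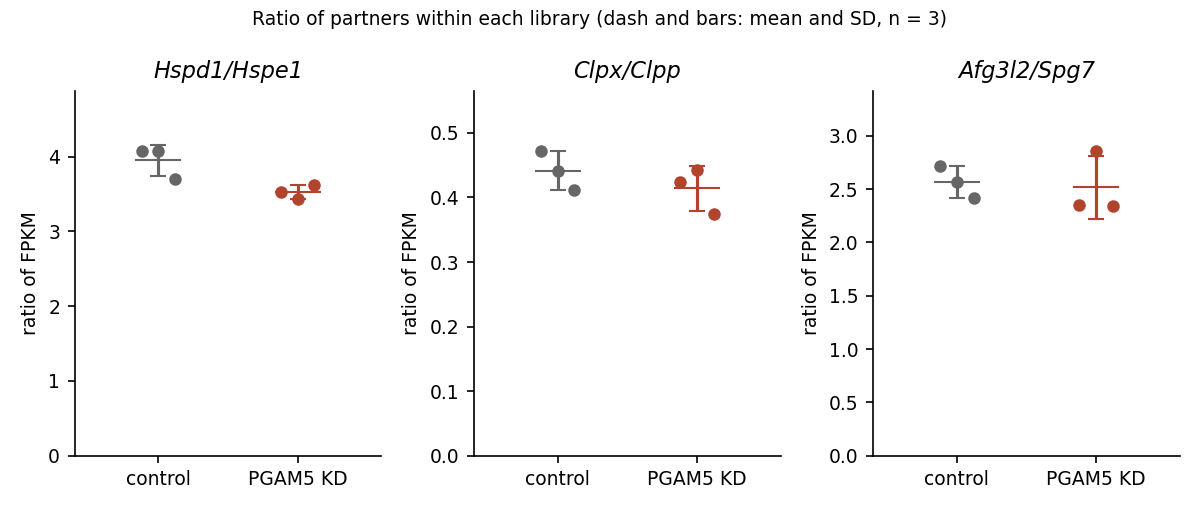
Ratio of FPKM of each pair of partners within a library, on axes that start at 0, with 1 point per library and the mean and SD of 3 libraries per group. The 3 PGAM5 KD ratios of Hspd1/Hspe1 (3.43 to 3.63) lie below the 3 control ratios (3.71 to 4.07), while the groups overlap for Clpx/Clpp and Afg3l2/Spg7.

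Htra2 encodes a serine protease of the intermembrane space that can also bind inhibitors of apoptosis when it leaves mitochondria. Htra2 was at 29.7, 30.5 and 31.6 FPKM in control and at 28.5, 30.6 and 27.9 FPKM in PGAM5 KD libraries, with PGAM5 KD replicate 2 inside the control range. The log2 fold change was -0.08 (-0.19 to 0.04, adjusted p = 0.262 by limma), and it was called lower under TPM scaling alone (-0.16, adjusted p = 0.0451). Htra2 overlaps Aup1 by 753 bases and Loxl3 by 1297 bases on the opposite strand. Aup1 was at 40.6 ± 1.69 FPKM in control and 36.7 ± 1.06 FPKM in PGAM5 KD libraries, lower by 0.14 on the log2 scale as a limma fit (adjusted p = 0.0449), and its part in the Htra2 value was not tested.

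**Figure D4:**
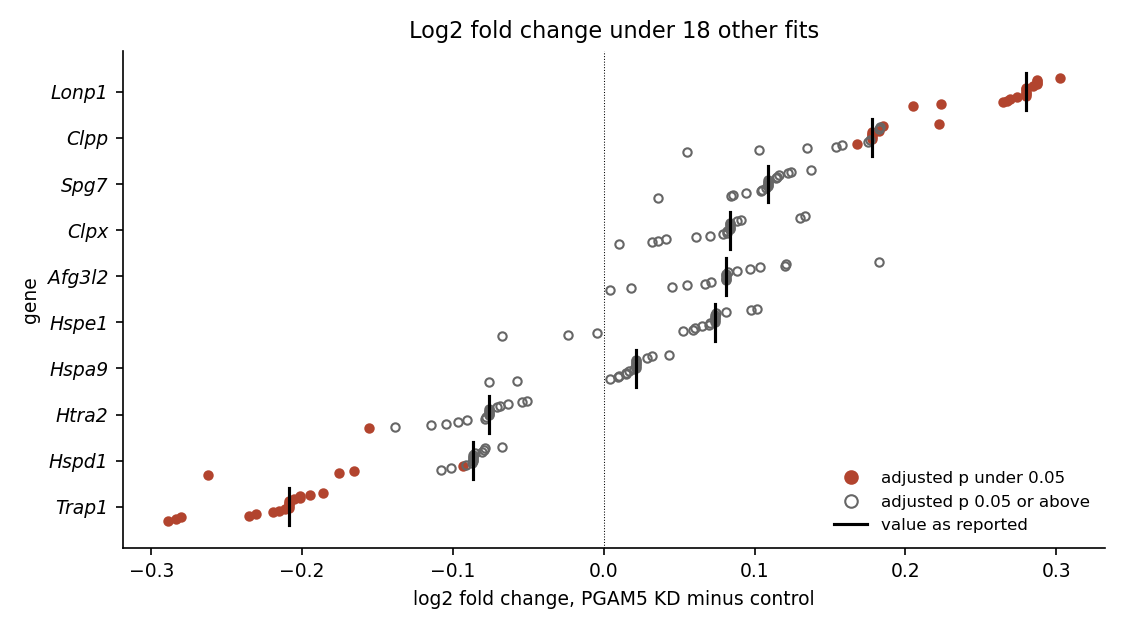
Log2 fold change of the 10 genes (PGAM5 KD minus control) in the reported fit (black bar) and in 18 other fits (1 point each, filled red where the adjusted p was below 0.05). All points of Lonp1 are red and lie between 0.21 and 0.30, all points of Trap1 are red and lie between -0.29 and -0.19, and Clpp, Hspd1 and Htra2 mix red and open points.

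The 10 genes were set beside 5 related lists, 91 genes in all. The 11 co-chaperones and other chaperones of the matrix were all tested, and 3 rose, 0 fell and 8 did not pass the test, with a median log2 fold change of 0.08. The 27.3% called was below the 31.7% of all genes. Above 0 were 9 of 11, against 52.5% of all genes. That number was 8 under quantile normalisation (49.5% of all genes), 6 under TPM scaling (40.4%) and 5 after the GC and length correction (52.8%). Grpel1, the nucleotide exchange factor of mortalin, rose from 19.7 ± 0.102 to 25.7 ± 1.02 FPKM (log2 fold change 0.37, adjusted p = 0.000911 by limma) and was called in every fit. Its paralog Grpel2 was not called (0.08 on the log2 scale, adjusted p = 0.494). Dnajc19, a J protein of the import motor (0.25), and Clpb, a disaggregase (0.24), also rose, and they stayed called in 9 and 11 of 18 other fits, neither in more than 1 of the 6 fits with a library removed. The J protein Dnaja3 (0.01), the iron-sulfur co-chaperone Hscb (0.11) and Dnlz, which keeps mortalin soluble (-0.02), did not pass the test.

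Of 19 other proteases and their scaffolds, 18 were tested, 5 rose, 2 fell and 11 did not pass, with a median log2 fold change of 0.05. The share called was 38.9%, against 31.7% of all genes. Above 0 were 11 of 18, against 52.5% of all genes. That number was 9 under quantile normalisation (49.5% of all genes), 8 under TPM scaling (40.4%) and 11 after the GC and length correction (52.8%). Hax1, a partner of Clpb and Htra2, rose from 94.0 ± 2.43 to 129 ± 2.41 FPKM (log2 fold change 0.46, adjusted p = 0.000132 by limma). Stoml2 (0.28), Phb (0.20) and Phb2 (0.14), membrane scaffolds of which the prohibitins surround the m-AAA protease, rose as well, as did Immp1l (0.49), a subunit of the inner membrane peptidase. Phb2 lost its call under quantile normalisation and TPM scaling, with no trend in the variance (adjusted p = 0.0598) and without control replicate 2 or 3 or PGAM5 KD replicate 2, and Immp1l with no filter (adjusted p = 0.0869), after the GC and length correction (0.36, adjusted p = 0.0852) and without control replicate 1 or 2 or PGAM5 KD replicate 2 or 3. Xpnpep3 (-0.32), an aminopeptidase, and Pitrm1 (-0.19), which digests cleaved presequences, fell. Parl and Oma1, the proteases known to cleave PGAM5, had log2 fold changes of -0.05 and 0.08 with adjusted p of 0.404 and 0.605, and the i-AAA protease Yme1l1 had 0.15 (adjusted p = 0.0601). Yme1l1 was called higher in 5 of the 18 other fits, among them voom (0.15, adjusted p = 0.017) and the GC and length correction (0.24, adjusted p = 0.0111). Its lowest value over those fits was 0.08 and its highest adjusted p 0.288.

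Of 23 genes of protein import, 21 were tested, 5 rose, 0 fell and 16 did not pass (23.8% called, against 31.7% of all genes), with a median log2 fold change of 0.11 and 19 of 21 above 0, against 52.5% of all genes tested. Under TPM scaling 13 of 21 were above 0, against 40.4% of all genes, and after the GC and length correction 14 of 21, against 52.8%. Those that rose were Romo1 (0.44), Timm8b (0.41), Timm23 (0.26), Gfer (0.21) and Tomm5 (0.10). Timm23 is the channel of the inner membrane, Timm8b a small chaperone and Gfer a sulfhydryl oxidase of the intermembrane space, and Tomm5 a subunit of the outer membrane channel. Tomm5 lost its call whichever library was left out, Romo1 without any 1 PGAM5 KD library, Timm8b without PGAM5 KD replicate 3, and Gfer without control replicate 2 or 3 or PGAM5 KD replicate 1 or 2. Under TPM scaling and under the GC and length correction 1 import gene, Timm8b, stayed called, Romo1 stayed called in 11 of 18 other fits, and Timm23 had log2 fold changes of 0.19 (adjusted p = 0.0578) and 0.14 (adjusted p = 0.121). The number called was 2 without PGAM5 KD replicate 2 or 3 and 3 without control replicate 2 or 3 or PGAM5 KD replicate 1.

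Of 9 regulators tied to the mitochondrial unfolded protein response, 8 were tested, 0 rose, 2 fell and 6 did not pass, with a median log2 fold change of -0.03. The 2 of 8 called, both lower, compare with 31.7% of all genes called and 14.9% called lower. Ddit3, the stress factor CHOP, was at 6.07, 4.46 and 5.71 FPKM in control and 2.58, 2.80 and 2.82 FPKM in PGAM5 KD libraries. The groups did not overlap, and Ddit3 fell by 0.77 on the log2 scale (SE 0.11, adjusted p = 0.0022 by limma). Dele1, which relays mitochondrial stress to the cytosol, fell by 0.32 and lost its call with no filter (adjusted p = 0.075), with a replicate block (0.061), after the GC and length correction (-0.24, adjusted p = 0.0737) and without control replicate 2 or 3 or PGAM5 KD replicate 2 or 3. Atf5, a factor reported to drive mitochondrial chaperone genes, was not called (0.11 on the log2 scale, adjusted p = 0.567).

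Of 29 cytosolic chaperones, 27 were tested, 13 rose, 0 fell and 14 did not pass, with a median log2 fold change of 0.11. The 6 with the largest changes were Hspa4l (0.49), Hspa1b (0.33), Dnajb1 (0.30), Cct7 (0.20), Cct5 (0.19) and Stip1 (0.19), of which Hspa1b was at 1.77 to 2.97 FPKM in all libraries and stayed called in 7 of 17 other fits, among those with a library removed only without control replicate 3. Dnajb1 lost its call without control replicate 3 or PGAM5 KD replicate 2. Cct5 lost its call under quantile normalisation (0.08, adjusted p = 0.243) and TPM scaling (0.11, adjusted p = 0.066), and Stip1 under quantile normalisation (0.12), TPM scaling (0.11) and the GC and length correction (0.09). Hspa1b and Hspa4l belong to the HSP70 family, Dnajb1 is its J protein partner, and Cct5 and Cct7 are subunits of the cytosolic chaperonin. The share called higher, 13 of 27, compares with 16.8% of all genes. Under TPM scaling 3 were called higher and 2 lower, against 10.3% of all genes called higher, and under quantile normalisation 4 higher and 2 lower, against 13.6%. The number called higher was 6 without PGAM5 KD replicate 2 or 3, 7 without control replicate 1 and 8 without control replicate 2. The lists were described by counts only, and no difference between a list and other genes was tested.

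**Figure D5:**
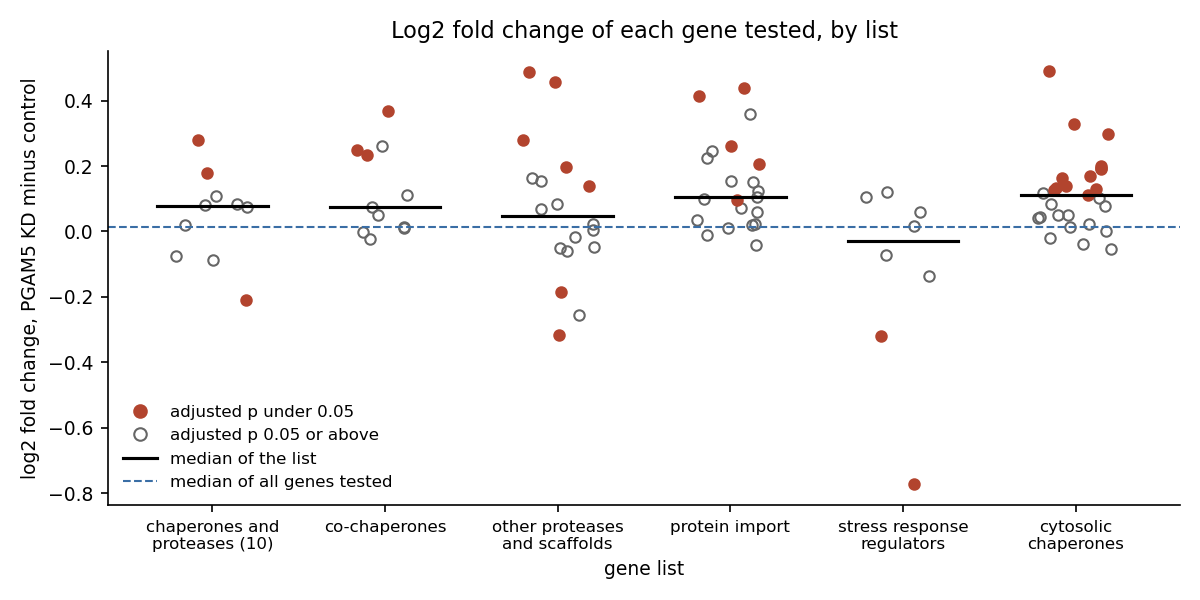
Log2 fold change (PGAM5 KD minus control) of each gene tested in the 10 chaperones and proteases and in 5 related lists, 1 point per gene, filled red where the adjusted p was below 0.05, with the median of each list (black) and of all genes tested (dashed, 0.01). Medians lie between -0.03 for the stress response regulators and 0.11 for protein import and the cytosolic chaperones, and Ddit3 is the lowest point at -0.77.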

How the data were processed

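RNA of LPS-treated control and PGAM5 KD iBMDMs was poly(A)-selected and sequenced as 3 libraries per group. The authors deposited FPKM per Ensembl gene, 1 table per library. The submitters' processing notes name HISAT2 2.0.5, featureCounts 1.5.0-p3 and mm10, and the annotation is not given in the sources used here. GENCODE M21 (GRCm38) held 54495 of the identifiers and lacked 37. FPKM times exon length fell on whole fragments within 0.01 for 96.8% to 97.1% of values under 1000 fragments, which gave the depth of each library. Genes whose FPKM averaged 1 or more were fitted on log2(FPKM + 1) with limma 3.58.1 (R 4.3.3, trend in the variance), two-sided, without covariates. The fold changes are thus on the log2(FPKM + 1) scale, which understates the change of low genes. The main limma fit was tested on simulated log2 values with known changes, and the other fits and steps were not tested in this way. Partner ratios were compared by exact two-sided permutation tests. Similar transcripts were found with blastn 2.17.0. Replicates differed by more than sampling noise (chi-square per degree of freedom 5.01 to 8.83), so none was counted as a copy. The 10 genes and the lists were chosen with earlier results of these data known. Named in the text were the 10 genes, Pgam5, the partners of Hspa9, Oma1, Parl, Yme1l1, Phb, Phb2 and Atf5, at most 6 genes of each list with the largest log2 fold change among those called, and genes that overlap or resemble one of the 10. Rpl36, Mertk, Csf1r, Fcgr1 and Lck lie outside that rule and were named after their values were seen. The alternatives were pseudocount 0.1, no filter on low values or a filter at a mean of 5 FPKM, quantile, TPM and median scaling, no trend, array weights, a replicate block, voom on recovered fragments, protein-coding genes only, a GC and length correction, and leaving out each library.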

Additional observations from a re-analysis of the deposited data

How the results depend on the processing

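Lonp1 stayed called higher and Trap1 called lower in all 18 other fits, with log2 fold changes of 0.21 to 0.30 and -0.29 to -0.19, and in no fit was one of the 10 genes differentially expressed by the study's threshold. The calls higher were 1 in place of 2 after quantile normalisation, TPM scaling, voom and the GC and length correction, and 1 to 2 with a library left out, as Clpp lost its call. Its log2 fold change was 0.13 (quantile), 0.10 (TPM), 0.18 (voom) and 0.055 (GC and length), and 0.15 to 0.22 with a library left out. The calls lower were 2 (quantile), 3 (TPM), 2 (voom) and 2 (GC and length) in place of 1, since Hspd1 was then called at log2 fold changes of -0.26, -0.17, -0.093 and -0.18, and Htra2 under TPM at -0.16. Over all genes, 1721 of 10540 (quantile), 2282 of 10540 (TPM), 1957 of 10535 (voom) and 1355 of 10523 (GC and length) were called lower. The main fit called 1575 of 10540 lower. The share of all genes called higher was 13.6% (quantile), 10.3% (TPM), 18.4% (voom) and 14.6% (GC and length), in place of 16.8%. Signs turned for Hspe1 under quantile (-0.023), TPM (-0.0045) and GC and length (-0.068), and for Hspa9 under quantile (-0.076) and TPM (-0.057). The cause of these shifts was not tested.

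Over all genes, TPM scaling gave 1088 calls higher, and the differentially expressed genes were 261 with a pseudocount of 0.1, 76 at a mean FPKM of at least 5, 233 under TPM and 277 with voom, in place of 139. Voom on the recovered fragments called 1937 genes higher and 1957 lower of 10535 tested. Co-chaperones called were 1 without a filter and 1 under TPM in place of 3, and 1 to 2 with a library left out (1 without control replicate 1 or 2 or PGAM5 KD replicate 1 or 3). Import genes called were 3 without a filter, 1 under TPM, 3 without a trend and 1 after the GC and length correction in place of 5, and 2 to 6 with a library left out. All co-chaperones and import genes called were higher. The share of all genes called higher was 6.36% without a filter, 10.3% under TPM, 14.7% without a trend and 14.6% after the GC and length correction, in place of 16.8%. Regulators called were 1 without a filter, 1 at a mean FPKM of at least 5, 3 under quantile and 4 under TPM in place of 2, and 1 to 2 with a library left out (1 without control replicate 2 or 3 or PGAM5 KD replicate 2 or 3). All regulators called were lower. Over all genes, 1267 of 20816 without a filter, 1243 of 7092 at a mean of at least 5, 1721 of 10540 under quantile and 2282 of 10540 under TPM were called lower. Cytosolic chaperones called were 6 under quantile (4 higher, 2 lower), 5 under TPM (3 higher, 2 lower) and 7 without a trend in place of 13, and 6 to 9 with a library left out.

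Among the list genes, signs turned for Tomm5 (-0.032), Dnaja3 (-0.0017), Hscb (-0.0072), Oma1 (-0.024) and Atf5 (-0.0089) after the GC and length correction and for Dnaja3 under quantile (-0.0066) and TPM (-0.064). With a library left out, log2 fold changes ran from -0.030 to 0.060 for Dnaja3, -0.014 to 0.32 for Hscb, -0.10 to 0.055 for Dnlz, -0.041 to 0.18 for Oma1 and -0.0098 to 0.25 for Atf5, and the log2 difference of the Afg3l2/Spg7 ratio from -0.13 to 0.02.

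Replicates of the same number did not deviate together (correlations -0.052 to 0.016), so the numbers were not taken as pairs. With a replicate block, 1440 genes were called higher and 1212 lower, 1 regulator and 8 cytosolic chaperones were called, Clpp stayed called (adjusted p = 0.0435 by limma) and the Hspd1/Hspe1 difference had a sign permutation p of 0.25, the smallest that 3 pairs allow. Array weights were 0.659 for PGAM5 KD replicate 1 and 0.977 to 1.24 for the other libraries, and under them Lonp1 (0.27), Clpp (0.17) and Trap1 (-0.22) stayed called.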
